A study of Mus musculus with 6 samples.

Results

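The potassium channel subunits examined here were the pore-forming and accessory members of the Kcna, Kcnb, Kcnc, Kcnd, Kcnf, Kcng, Kcnh, Kcnj, Kcnm, Kcnn, Kcnq, Kcns, Kcnt and Kcnv families. They were chosen by a rule on gene symbols, among protein-coding genes, with the 2 glial and vascular inward rectifiers Kcnj8 and Kcnj10 and the Kcnk leak channels left out. Of 21006 genes in the data, 60 were members. The samples were prefrontal cortexes of wild type male C57BL/6 mice aged 18 months. The PND group (n = 3 mice), a model of postoperative neurocognitive disorder, breathed 1.5% isoflurane for 30 min and then had an exploratory laparotomy, a surgical opening and inspection of the abdomen, under isoflurane for a further 30 min, with lidocaine cream and povidone iodine on the wound afterwards. The CON group (n = 3 mice) had no anesthesia and no operation, so anesthesia, surgery and wound care cannot be told apart in this comparison. Tissue was collected after a Barnes maze test, a test of spatial memory, under terminal isoflurane in both groups. The mRNA level of each gene was given as FPKM, fragments per kilobase of exon after scaling for depth, which allows levels to be compared between genes.

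Potassium channels let potassium leave the cell and so pull the membrane toward rest. Voltage-gated Kv subunits (Kcna to Kcnd, Kcnh and Kcnq) open upon depolarization and end the action potential or hold back repetitive firing, calcium- or sodium-activated subunits (Kcnm, Kcnn, Kcnt) follow the ions that enter during firing, and inward rectifiers (Kcnj) hold the resting potential and serve G protein-coupled receptors. Kv subunits assemble into tetramers within a subfamily, so the mixture of subunits that a neuron makes sets the speed and voltage range of its currents.

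The tissue label was checked against marker genes. The summed FPKM of 10 neuronal markers was 952 to 1032 in PND and 952 to 1056 in CON, and the summed level of each of 11 marker lists overlapped between the groups, although a few abundant genes carry most of some sums. Single markers with an unadjusted limma p below 0.05 were higher in PND for choroid plexus (Sostdc1, 0.284 against 0.0519 FPKM, and Clic6, 1.84 against 1.05), endothelium (Ly6c1, 5.79 against 3.23), striatal neurons (Pde10a, 13.1 against 8.52) and astrocytes (Gfap), and lower for microglia (P2ry12, 5.49 against 9.27) and astrocytes (Aqp4). Of all genes tested, 3.13% had such a p. The microglial and endothelial markers did not all move one way. Above 0 were 5 of 8 microglial markers (median log2 fold change 0.10), and of 8 endothelial markers 4 were above 0 and 4 below. Of the 10 choroid plexus markers 5 were tested, with a median log2 fold change of 0.53, and Ttr was at or under 0.207 FPKM in every sample. All 8 striatal markers had a log2 fold change above 0, and their sum was 214 to 262 FPKM in PND and 137 to 345 FPKM in CON. The part of these differences in the values of the channel genes was not tested. Effective depth, estimated from steps in the low values, was 7204100 to 9410900 fragments per sample, and no pair of samples held identical values. The samples were whole pieces of tissue, so fewer cells of a type and less RNA per cell cannot be told apart.

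No shift of the family as a whole was detected between PND and CON. Kcna6 was the single member past the limits of the study's cut-off when these were applied to limma values. The summed FPKM of the 60 members was 545, 496 and 529 in PND replicates 1 to 3 and 520, 569 and 534 in CON replicates 1 to 3, or 523 ± 25.2 against 541 ± 25.2 (SD, n = 3 each), and the groups overlapped. A mean of at least 0.1 FPKM over the 6 samples was reached by 56 members, which were tested with limma on log2(FPKM + 0.1), and 4 (Kcna10, Kcnj15, Kcnn4 and Kcnq1) were below it. Among the 56, the fitted log2 fold change (PND over CON) had a median of 0.03, with 33 members above 0 and 23 below. The median took either sign, from -0.10 to 0.12, when 1 sample was left out. Over all 18185 genes tested the median was 0.01, and 52.4% lay above 0 against 58.9% of the members.

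The limits of the study's cut-off, a fold change above 2 with an unadjusted p below 0.05, were applied here to the limma values. The study used edgeR and limma, with fold changes from its FPKM, so the measures differ. This cut-off was passed by 1 of 56 members (1.79%), against 1.33% of all genes tested. No member passed it in the higher direction, where 0.841% of all genes did, and the 1 that passed was lower in PND, where 0.484% of all genes did. Where the mean was 1 FPKM or more, 1 of 41 members (2.44%) passed, against 0.492% of all genes at that level. An unadjusted p below 0.05 was likewise given to 1 of 56 members, compared with 3.13% of all genes. That member was lower in PND (1.4% of all genes), and 0 of the 56 were higher with such a p (1.73% of all genes). The other 55 members had an unadjusted p of 0.0541 or more in limma, so the log2 fold changes given for them below did not pass the test, each with its standard error (SE). No member had an adjusted p below 0.05 in limma or in limma-voom run on estimated fragments, while 2 of all 18185 genes had one in limma. The groups did not overlap for 5 of 56 members (8.93%), against 7.66% of all genes. Of these, 2 members, Kcna5 among them, had all PND samples above all CON samples (3.78% of all genes did), and Kcna6, Kcnj16 and Kcnmb1 had them below (3.88%). These counts depended on single samples. Members past the cut-off numbered 0 without PND replicate 2, 2 without CON replicate 1 (Kcna6, Kcnh6) and 2 without CON replicate 2 (Kcnj11 among them, Kcna6 not), against 1.54%, 1.9% and 2.13% of all genes in the same fits. Members with an unadjusted p below 0.05 numbered up to 5 (8.93%, without CON replicate 2, against 5.28% of all genes), and those with non-overlapping groups up to 12 (21.4%, without CON replicate 1, against 19.4% of all genes).

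**Figure D1:**
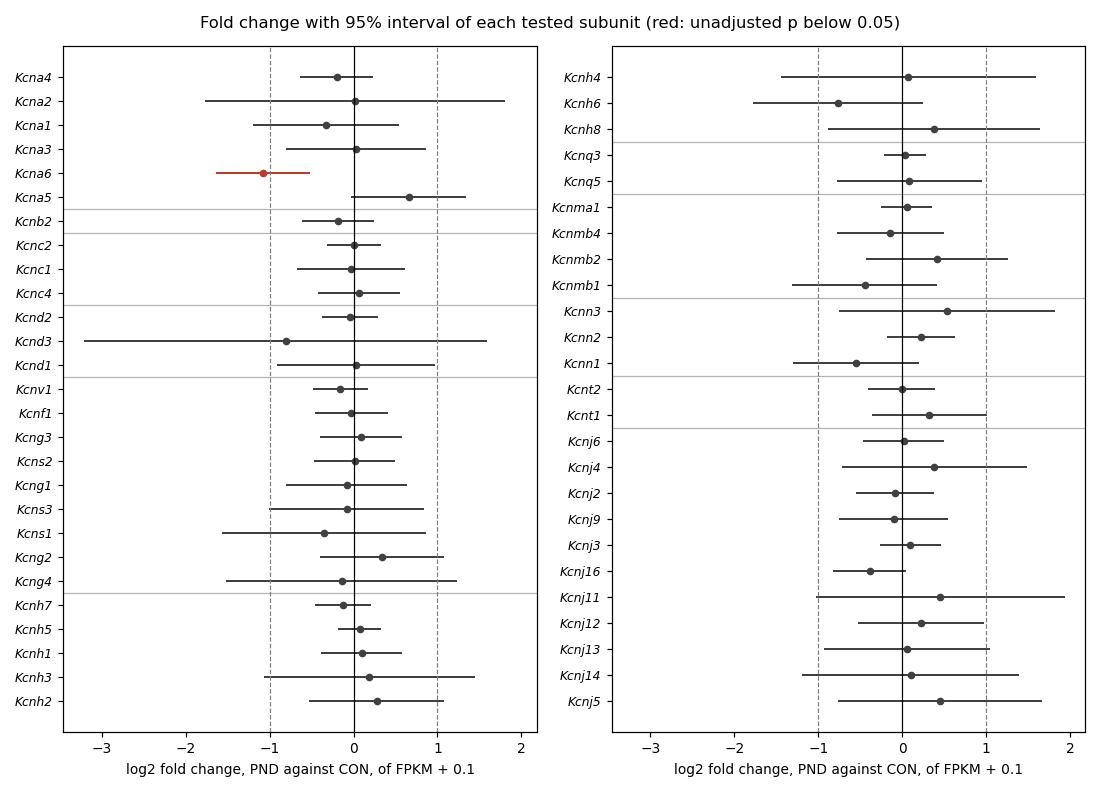
Fitted log2 fold change (PND over CON, on the log2(FPKM + 0.1) scale) of 52 tested members, by subfamily, with points for the estimates and bars for the 95% interval from limma. The interval of Kcna6 lies wholly below 0, while those of Kcnd3 and Kcna2 are among the widest.

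For the subfamilies given here, the median log2 fold change was at most 0.43, and the summed FPKM of each overlapped between the groups. The Kcnq median of 0.43 rested on 4 tested members, and the Kcnn median of 0.23 on 3. Further medians were -0.09 for Kcna, 0.04 for Kcnc, -0.04 for Kcnd, -0.08 for the silent subunits Kcnf, Kcng, Kcns and Kcnv, 0.09 for Kcnh, -0.04 for Kcnm, 0.16 for Kcnt and 0.10 for Kcnj. The Kcnq median moved to 0.085 when members with a mean under 1 FPKM were left out. The Kcnd median was then -0.43, on fewer members. Without CON replicate 2 the Kcnq median was 0.10, the Kcnn median -0.18 and the Kcnm median 0.14. The medians of Kcna, Kcnc, Kcnh, Kcnt, Kcnj and the silent subunits also changed sign when 1 sample or another was left out, so no direction is read from them. The order of the 5 largest shares of the family was led by the silent subunits in both groups. Silent subunits took 18.2% of the summed member FPKM in PND and 19.0% in CON, and Kcna took 15.1% and 16.3%. Kcnh held 13.0% and 12.9%, Kcnq 12.5% and 11.1%, and Kcnj 11.3% and 10.8%.

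**Figure D2:**
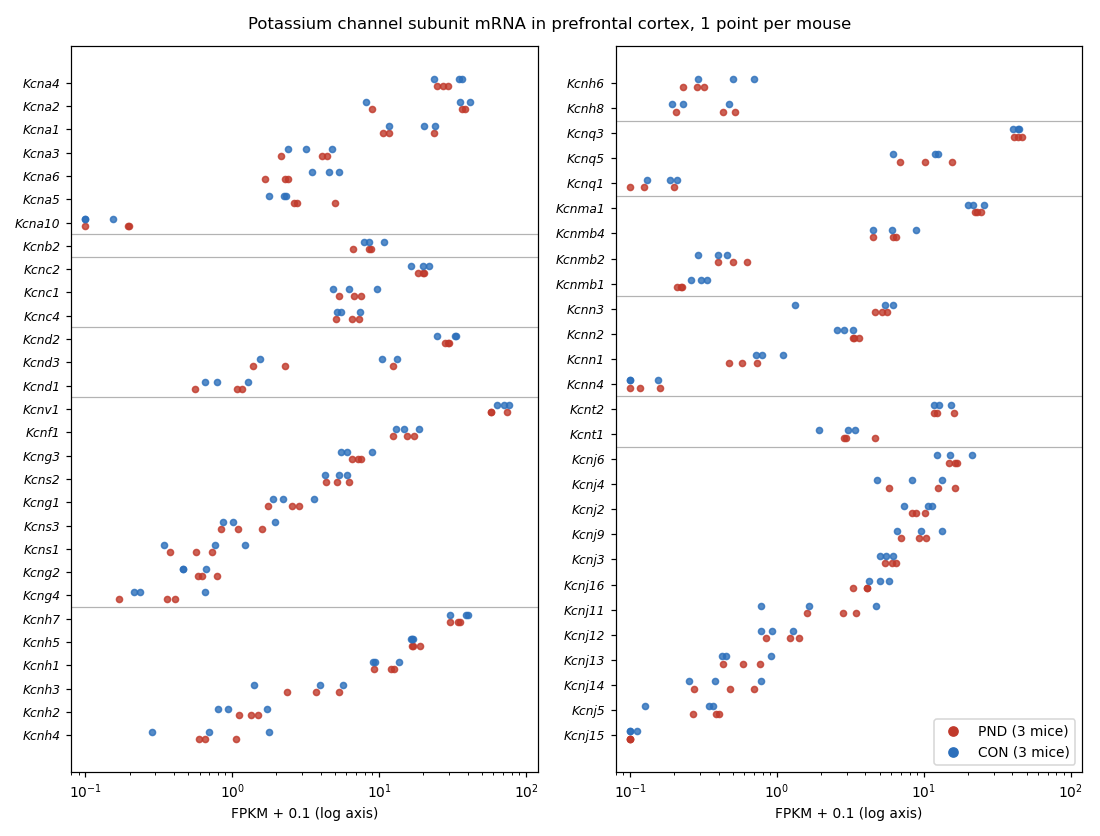
FPKM of 56 members in each sample, with 0.1 added, on a log axis, grouped by subfamily, with PND and CON samples in separate colors. Levels run from near 0 to 76.6 FPKM for Kcnv1, and the PND and CON points of most members overlap.

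The width of the intervals differed between members. Of the 41 members with a mean of at least 1 FPKM, 29 (70.7%) had a 95% interval of the log2 fold change wholly within -1 to 1, compared with 81.7% of all genes at that level. A change of 2-fold was outside the interval of these 29. For 12 of the 41 (Kcnc2, Kcnd2, Kcnv1, Kcnf1, Kcns2, Kcnh7, Kcnh5, Kcnq3, Kcnma1, Kcnt2, Kcnj6 and Kcnj3) the interval lay within -0.5 to 0.5. For 12 others, among them Kcna2, Kcna1, Kcna6, Kcna5, Kcnd3, Kcnh3, Kcnh2, Kcnn3, Kcnj4 and Kcnj11, it reached -1 or 1, so a 2-fold difference was not outside it at this sample number.

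The Kcna genes encode Kv1 subunits, low-threshold channels of axons and terminals that limit how readily a neuron fires. Kcna6 (ENSMUSG00000038077, chr6:126708329-126740674, minus strand, GRCm38) had the lowest p of the family. Its level was 2.17, 1.57 and 2.30 FPKM in PND replicates 1 to 3 and 3.39, 5.24 and 4.47 FPKM in CON replicates 1 to 3. All PND samples were thus below all CON samples. The means were 2.01 ± 0.394 and 4.37 ± 0.931 FPKM (SD, n = 3 each), and the log2 fold change was -1.08 (SE 0.23, 95% interval -1.62 to -0.53) with an unadjusted limma p of 0.00217. After adjustment over all genes the limma p was 0.997. Kcna6 was therefore lower in PND by the limits of the study's unadjusted cut-off, applied to limma values, and not after adjustment. Its fold fell short of the limit without PND replicate 2 (log2 fold change -0.91) and without CON replicate 2 (-0.94), and with a pseudocount of 1 (-0.83). An exact permutation test of 3 against 3 samples cannot give a two-sided p under 0.1.

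The estimated number of fragments behind the Kcna6 values was 317 in PND and 597 in CON, each summed over 3 samples. An exon of Kcna6 overlaps the predicted gene Gm26673 on the opposite strand, and use of strand in the counting was not stated. Gm26673 was listed at 0.602, 0.262 and 0.505 FPKM in PND and at 0.277, 1.49 and 0.535 FPKM in CON, so the groups overlapped there. Reads from the overlap cannot be told apart without strand, and the part of this overlap in the Kcna6 difference was not tested.

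Kcna6 lies in a group of Kv1 genes on chromosome 6, with Kcna5 (ENSMUSG00000045534, chr6:126532551-126535412) and Kcna1 (ENSMUSG00000047976, chr6:126640397-126646384) on the same strand. Between Kcna5 and Kcna1 lie 105.0 kb, and between Kcna1 and Kcna6 61.9 kb. Kcna5, a Kv1 subunit also known from heart and vessels, read 2.53, 2.65 and 4.95 FPKM in PND and 2.24, 1.67 and 2.14 FPKM in CON. All PND samples were above all CON samples, with PND replicate 3 the highest, opposite in direction to Kcna6. The means were 3.38 ± 1.36 and 2.02 ± 0.302 FPKM, with a log2 fold change of 0.66 (SE 0.29), and Kcna5 did not pass the cut-off. Kcna1, a main axonal Kv1 subunit whose mutation causes episodic ataxia, was at 11.6, 23.4 and 10.5 FPKM in PND and 24.0, 20.1 and 11.7 FPKM in CON. Its groups overlapped, with PND replicates 1 and 3 and CON replicate 3 in the low range, and its log2 fold change was -0.33 (SE 0.37).

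**Figure D3:**
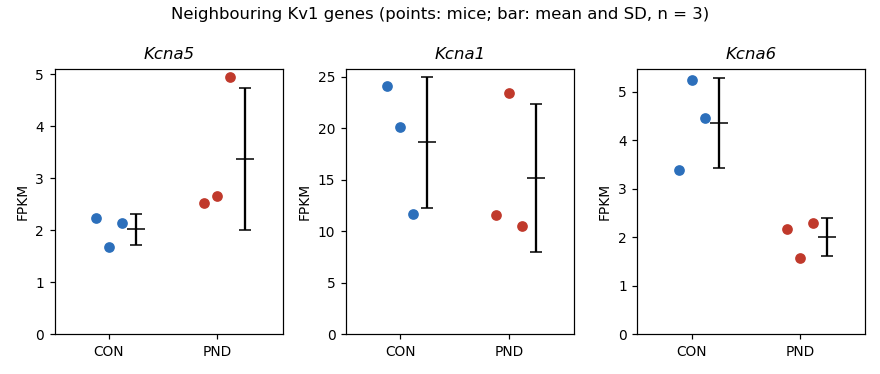
FPKM of Kcna5, Kcna1 and Kcna6, the Kv1 genes of the chromosome 6 group, with points for the 3 samples of each group and lines for mean and SD. Kcna6 is lower in every PND sample than in any CON sample, Kcna5 is higher in every PND sample, and Kcna1 overlaps.

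The sequences common to Kcna5 and Kcna6, where a short read could come from either gene, are shown. The coding exons of both genes hold 2 exact shared stretches, of 86 and 91 bases, at chr6:126533854-126533939 and chr6:126533950-126534040 in Kcna5 and at chr6:126738756-126738841 and chr6:126738852-126738942 in Kcna6 (GRCm38, GENCODE M21, minus strand, written 5′ to 3′). They contain 79 of the 50-base windows of Kcna6 (1.33%), and 2.81% of those of Kcna5. The part of shared reads in the values of either gene was not tested.
First shared stretch: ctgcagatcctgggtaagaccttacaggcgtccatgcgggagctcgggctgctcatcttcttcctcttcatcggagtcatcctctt
Second shared stretch: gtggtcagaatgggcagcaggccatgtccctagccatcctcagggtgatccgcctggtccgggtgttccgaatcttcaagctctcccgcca

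The promoters of the same pair are shown too, as 250 bases before and 50 after the start of transcription, from RefSeq on GRCm38.p6, with CG dinucleotides in capitals. Kcna6 (chr6:126740625-126740924, minus strand) has a GC content of 58.3% and 8 CG dinucleotides, and Kcna5 (chr6:126535506-126535805, minus strand) has 55% and 4.
Kcna6 promoter: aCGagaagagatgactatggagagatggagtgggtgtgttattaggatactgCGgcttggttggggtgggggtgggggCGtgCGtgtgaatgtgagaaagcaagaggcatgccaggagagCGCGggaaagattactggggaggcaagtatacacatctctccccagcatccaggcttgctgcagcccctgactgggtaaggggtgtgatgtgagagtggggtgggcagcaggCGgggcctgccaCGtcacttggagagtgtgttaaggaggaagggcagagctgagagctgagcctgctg
Kcna5 promoter: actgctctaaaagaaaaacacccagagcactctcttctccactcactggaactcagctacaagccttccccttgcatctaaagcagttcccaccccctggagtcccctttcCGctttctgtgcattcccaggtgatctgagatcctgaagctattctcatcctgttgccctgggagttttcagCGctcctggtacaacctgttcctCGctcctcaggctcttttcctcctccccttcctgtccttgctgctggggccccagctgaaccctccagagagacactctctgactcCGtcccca

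Among 52 RefSeq promoters of 42 members the median GC content was 62.2% and the median number of CG dinucleotides 11.5, against 52.7% and 7 over all 32851 promoters. Both strands were searched for short motifs. GGGCGG, the letters of a GC box, was in 28 of the 52 member promoters (53.8%) and in 35.7% of all. CCAAT was in 15 (28.8%) against 37.4%, TATAAA in 4 (7.69%) against 13.6%, and TGACGTCA, the full cyclic AMP response element, in 0 against 1.79%. None of these 4 motifs was in the Kcna5 or Kcna6 window.

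The abundant Kv1 genes were Kcna4 and Kcna2. Kcna4, which gives a fast inactivating A-type current, was at 24.7, 29.5 and 27.3 FPKM in PND and 34.9, 23.7 and 36.7 FPKM in CON. CON replicate 2 was the lowest sample, so the groups overlapped, and the log2 fold change was -0.20 (SE 0.18). Kcna2, the usual partner of Kcna1 in axons, was at 38.2, 8.80 and 36.6 FPKM in PND and 8.02, 41.8 and 35.4 FPKM in CON. One sample of each group, PND replicate 2 and CON replicate 1, was far below the other 4. The log2 fold change was 0.02 with an interval from -1.76 to 1.79, so a 2-fold difference in either direction was within it. Kcna3, known from lymphocytes and microglia as well as neurons, averaged 3.45 ± 1.22 FPKM in PND and 3.36 ± 1.22 in CON. The seventh Kv1 gene present, Kcna10, was at or under the floor of 3 fragments in every sample.

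Kcnb subunits form the delayed rectifier of the soma and proximal dendrites, where they cluster at contacts with the endoplasmic reticulum. Kcnb2 averaged 7.87 ± 1.17 FPKM in PND and 8.97 ± 1.59 in CON (log2 fold change -0.18, SE 0.18).

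Kcnc subunits open and close quickly at high voltage and serve fast-spiking neurons. Kcnc2 was the most abundant, at 19.8, 20.0 and 18.4 FPKM in PND and 19.9, 21.8 and 16.5 FPKM in CON. Both groups averaged 19.4 FPKM, and the interval of the log2 fold change, -0.30 to 0.31, left out a difference of 2-fold. Kcnc1, the main partner of Kcnc2 in parvalbumin interneurons, averaged 6.48 ± 1.13 FPKM in PND and 6.83 ± 2.53 in CON. The inactivating subunit Kcnc4 was at 6.21 ± 1.15 and 5.92 ± 1.17 FPKM.

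Kcnd subunits carry the A-type current of dendrites. Kcnd2 was at 29.9, 28.0 and 29.2 FPKM in PND and 33.0, 24.7 and 32.7 FPKM in CON, with PND inside the CON range (log2 fold change -0.04, SE 0.14). Kcnd3 was at 12.4, 1.29 and 2.17 FPKM in PND and 13.1, 1.44 and 10.4 FPKM in CON. PND replicates 2 and 3 and CON replicate 2 were the low samples, and the interval of the log2 fold change, -3.20 to 1.58, was the widest of the family. An exon of Kcnd3 overlaps its antisense gene Kcnd3os, which was listed at 1.50, 0.979 and 1.47 FPKM in PND and 0.516, 1.36 and 0.538 FPKM in CON. Kcnd1 averaged 0.833 ± 0.326 and 0.807 ± 0.329 FPKM.

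The Kcnf, Kcng, Kcns and Kcnv subunits are called silent, since they do not conduct by themselves and modify Kcnb channels with which they assemble. This group held the most abundant member of the family, Kcnv1. Kcnv1 was at 57.9, 74.3 and 57.3 FPKM in PND and 76.6, 63.7 and 70.5 FPKM in CON. PND replicate 2 lay among the CON samples while the other PND samples were below them, and the log2 fold change was -0.16 (SE 0.13). Kcnf1 was at 15.5, 12.4 and 17.2 FPKM in PND and 13.0, 18.5 and 14.6 FPKM in CON (log2 fold change -0.03, SE 0.18). The remaining 7 silent subunits were lower. Kcng3 averaged 6.98 FPKM in PND and 6.70 in CON, Kcns2 5.16 and 5.11, Kcng1 2.29 and 2.47, and Kcns3 1.08 and 1.18. Under 1 FPKM were Kcns1 (0.459 and 0.681), Kcng2 (0.563 and 0.429) and Kcng4 (0.211 and 0.267). None of the 9 passed the test, and the summed silent level was 94.9 ± 5.73 FPKM in PND and 102 ± 3.06 in CON.

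The Kcnh genes encode 3 kinds of subunit, EAG (Kcnh1, Kcnh5), ERG (Kcnh2, Kcnh6, Kcnh7) and ELK (Kcnh3, Kcnh4, Kcnh8). The ERG gene Kcnh7 led, at 34.1, 35.4 and 30.5 FPKM in PND and 39.0, 40.5 and 30.4 FPKM in CON (log2 fold change -0.13, SE 0.14). CON replicate 3 lay just below the PND samples. The EAG gene Kcnh5 was even across the samples, at 18.8, 16.8 and 16.8 FPKM in PND and 16.8, 16.7 and 16.3 FPKM in CON (log2 fold change 0.07, SE 0.10). Its EAG partner Kcnh1 was at 12.6, 9.18 and 12.0 FPKM in PND and 9.22, 13.6 and 9.06 FPKM in CON, overlapping (log2 fold change 0.10, SE 0.20). The ELK gene Kcnh3 ran from 2.26 to 5.23 FPKM in PND and from 1.3 to 5.58 FPKM in CON, and Mcrs1, which overlaps it on the opposite strand, ran from 3.04 to 5.51 and from 1.53 to 5.51 FPKM. Kcnh2, the ERG subunit of the cardiac action potential, averaged 1.22 FPKM in PND and 1.05 in CON. The low members were Kcnh4 (0.669 and 0.821 FPKM), Kcnh8 (0.285 and 0.198) and Kcnh6 (0.177 and 0.395). The Kcnh6 values were 0.184, 0.129 and 0.217 FPKM in PND and 0.191, 0.400 and 0.595 FPKM in CON, with CON replicate 1 within the PND range (log2 fold change -0.76, SE 0.43).

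Kcnq3 and Kcnq5 take part in the M current, a slow current near threshold that muscarinic receptors close. Kcnq3, the second most abundant member of the family, was at 43.5, 46.8 and 40.9 FPKM in PND and 44.4, 40.2 and 43.7 FPKM in CON. The groups interleaved, and its interval of -0.20 to 0.27 was among the narrowest (log2 fold change 0.03, SE 0.10). Kcnq5 was at 15.5, 10.1 and 6.81 FPKM in PND and 11.9, 6.08 and 12.4 FPKM in CON, overlapping (log2 fold change 0.09, SE 0.36). Kcnq1, the cardiac and epithelial subunit, was below the filter, and its exons overlap the antisense RNA Kcnq1ot1, which was listed at 17.7 to 21.1 FPKM over the 6 samples.

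Kcnma1 encodes the pore of the BK channel, opened by voltage and calcium together, and the Kcnmb genes its beta subunits. Kcnma1 was at 24.3, 22.1 and 22.8 FPKM in PND and 21.4, 25.6 and 19.9 FPKM in CON, with PND within the CON range (log2 fold change 0.05, SE 0.13). Kcnmb4, the neuronal beta subunit, averaged 5.63 ± 1.05 FPKM in PND and 6.37 ± 2.20 in CON. Kcnmb2, which inactivates the channel, was at 0.409 and 0.282 FPKM. Kcnmb1, the smooth muscle beta subunit, was at 0.108, 0.121 and 0.127 FPKM in PND and 0.159, 0.205 and 0.232 FPKM in CON. All its PND samples were below all CON samples, but the estimates rest on 13.0 and 19.0 fragments per group, and the log2 fold change of -0.44 (SE 0.36) did not pass the test.

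Kcnn1, Kcnn2 and Kcnn3 encode SK subunits, calcium-activated channels of the afterhyperpolarization that follows firing. Kcnn3 was at 5.13, 4.57 and 5.52 FPKM in PND and 5.37, 1.23 and 6.11 FPKM in CON. Only CON replicate 2 stood apart, at the low end, and the log2 fold change was 0.54 (SE 0.55) with all samples and -0.18 without that sample. Kcnn2 was at 3.50, 3.24 and 3.17 FPKM in PND and 3.18, 2.78 and 2.48 FPKM in CON, touching at 3.17 and 3.18 (log2 fold change 0.23, SE 0.17). The third SK gene, Kcnn1, was at 0.474, 0.374 and 0.631 FPKM in PND and 0.691, 0.999 and 0.617 FPKM in CON (log2 fold change -0.55, SE 0.31). Kcnn4, the channel of red and immune cells, was at or under the floor. The sodium-activated subunits were likewise without a call. Kcnt2 averaged 13.2 ± 2.33 FPKM in PND and 13.2 ± 1.87 in CON, and Kcnt1 3.39 ± 0.998 and 2.69 ± 0.755 (log2 fold change 0.32, SE 0.29).

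Among the inward rectifiers, the subunits of the G protein-gated GIRK channel (Kcnj3, Kcnj5, Kcnj6, Kcnj9) summed to 30.9 FPKM in PND and 31.5 in CON. Kcnj6 was at 16.3, 14.8 and 16.8 FPKM in PND and 12.2, 21.3 and 15 FPKM in CON, with PND inside the CON range (log2 fold change 0.02, SE 0.20). Its partners Kcnj9 and Kcnj3 averaged 8.77 ± 1.70 against 9.69 ± 3.35 FPKM and 5.88 ± 0.534 against 5.49 ± 0.574 FPKM. Kcnj5, the cardiac partner, was at 0.252 and 0.181 FPKM. The strong rectifiers of the Kir2 type (Kcnj2, Kcnj4, Kcnj12, Kcnj14) had a median log2 fold change of 0.16. Kcnj4 was at 12.4, 5.71 and 16.3 FPKM in PND and 4.72, 13.2 and 8.22 FPKM in CON, with overlap (log2 fold change 0.39, SE 0.47). Kcnj2, mutated in Andersen-Tawil syndrome, averaged 8.99 ± 0.955 and 9.68 ± 2.17 FPKM. Kcnj12 was at 1.06 and 0.894 FPKM, and Kcnj14 at 0.385 and 0.370 FPKM, where 30.8% of the 50-base windows are shared with Gm5522 and the counts are therefore uncertain.

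Kcnj16, which pairs with the excluded Kcnj10 in astrocytes, was at 4.0, 3.21 and 3.99 FPKM in PND and 5.68, 4.15 and 4.96 FPKM in CON. All PND samples were below all CON samples, and the log2 fold change of -0.39 (SE 0.18, interval -0.81 to 0.03) did not pass the test. Of 8 astrocyte markers, 2 had an unadjusted p below 0.05 in limma, Gfap with the higher mean in PND (21.8 against 13.6 FPKM) and Aqp4 with the lower (24.0 against 30.8 FPKM). Of all genes tested, 3.13% had such a p. The 8 summed to 327 to 447 FPKM in PND and 277 to 569 FPKM in CON. The part of astrocyte content in the Kcnj16 values was not tested. Kcnj11, the pore of the ATP-sensitive channel, was at 2.70, 1.51 and 3.36 FPKM in PND and 0.683, 4.60 and 1.54 FPKM in CON, with both extremes in CON (log2 fold change 0.46, SE 0.63). Kcnj13, a subunit of epithelia, was at 0.494 and 0.495 FPKM and overlaps Gigyf2 on the opposite strand. Kcnj15 was listed at 0 in 5 samples.

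Several abundant members differed more between samples of one group than between the groups. A gap above 1 on the log2 scale between neighbouring samples, when the 6 were put in order, was found for 5 of 41 members with a mean of at least 1 FPKM (12.2%), against 4.42% of all genes at that level. This limit was set after the values were seen. Among them were Kcna2, Kcnd3, Kcnn3 and Kcnj11, with gaps of 1.99, 2.21, 1.82 and 1.04. CON replicate 2 was on the low side for Kcnd3 and Kcnn3, but not for Kcna2, where it had the highest value. PND replicate 2 was low for Kcna2 and Kcnd3, and CON replicate 1 for Kcna2 and Kcnj11. No one sample was low for all 5. The FPKM divide by an exon length that the sources used here do not give, and annotated transcripts of Kcna2 range from 2430 to 11582 bases. The part of exon length or transcript form in these gaps was not tested.

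**Figure D4:**
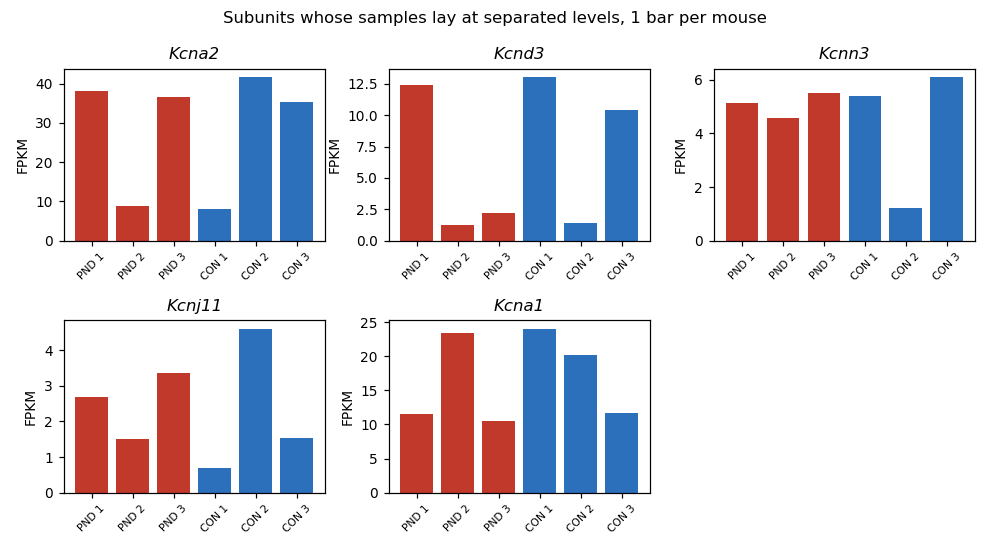
FPKM of Kcna2, Kcnd3, Kcnn3, Kcnj11 and Kcna1 in each of the 6 samples, as bars from 0. The low bars belong to PND replicate 2 and CON replicate 1 for Kcna2, to CON replicate 2 and PND replicates 2 and 3 for Kcnd3, and to CON replicate 2 alone for Kcnn3.

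The GC content of the transcript moved with the members' levels in single samples. For each of the 56 members the deviation of a sample's log2 value from the gene's mean was set against GC content. Spearman's rho across these 56 genes, which share each library and are not independent replicates, ran from -0.63 (CON replicate 1) and -0.38 (PND replicate 2) to 0.50 (CON replicate 2) and 0.52 (PND replicate 3), with 0.13 for PND replicate 1 and -0.18 for CON replicate 3. The 19 members with at least 55% GC, among them Kcnh3, Kcnj4 and Kcnj11, deviated by a median of -0.48 in CON replicate 1 and 0.57 in CON replicate 2. The pattern ran across both groups, and the median log2 fold change was 0.08 for these 19, 0.04 for the 24 members of 45 to 55% GC and -0.08 for the 13 below 45%. When a smooth curve on GC content was removed from each sample, rho lay between -0.10 and 0.08. Kcna6 then had a log2 fold change of -1.12 with a limma p of 6.86e-05 and an adjusted p of 0.113.

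**Figure D5:**
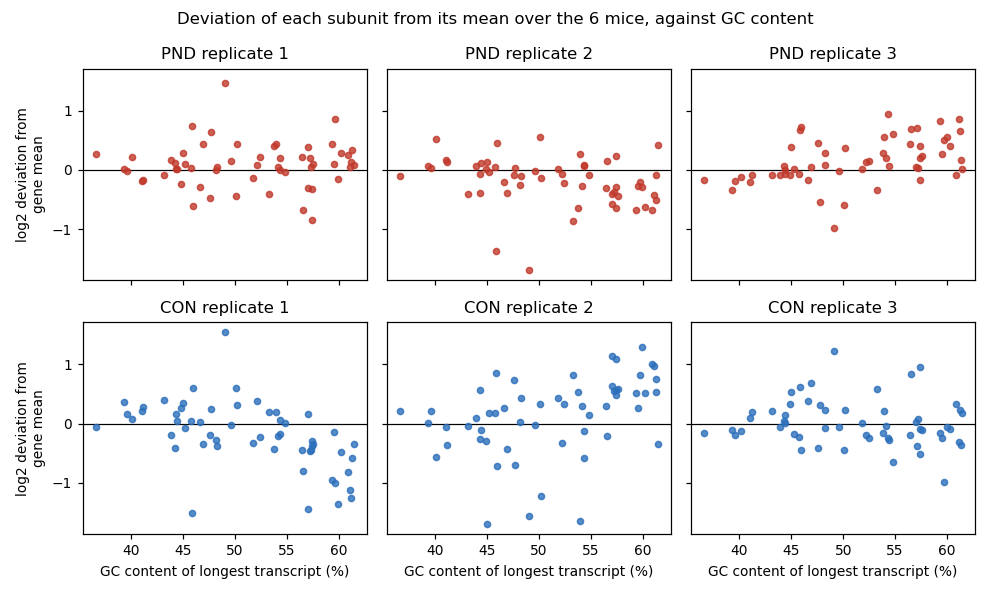
Deviation of each member's log2 value from its mean over the samples (vertical) against the GC content of its longest transcript in percent (horizontal), in 1 panel per sample, for 56 members. The points slope down in CON replicate 1 (rho -0.63) and PND replicate 2 (-0.38) and up in CON replicate 2 (0.50) and PND replicate 3 (0.52).

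The genes of proteins that accompany these channels gave no calls. Of 22 auxiliary subunit genes listed (beta subunits, KChIP, DPP, KCNE and similar), 17 were tested. Their median log2 fold change was 0.06, with 11 above 0 and 6 below, and none had an unadjusted p below 0.05 in limma or limma-voom, or non-overlapping groups. Kcnip4, a KChIP of Kcnd channels and the most abundant of the list, averaged 15.1 ± 2.08 FPKM in PND and 16.3 ± 4.20 in CON (log2 fold change -0.09, SE 0.20). Amigo1, a partner of Kcnb channels, was at 0.904 FPKM in CON replicate 3 and between 4.09 and 5.86 FPKM in the other samples.

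Of 13 genes for anchoring, localization and turnover of the channels, all were tested. Their median log2 fold change was 0.02, with 8 above 0 and 5 below, and none had an unadjusted p below 0.05 in limma or limma-voom. Dlg2, a scaffold that gathers Kv1 channels, averaged 57.9 ± 0.932 FPKM in PND and 57.1 ± 2.78 in CON. The groups did not overlap for 4 of the 13 (30.8%), against 7.66% of all genes tested. Adam23 and Nedd4l, a ubiquitin ligase of Kcnq channels, lay higher in PND, and Ank2 and Cntnap2, the latter needed to cluster Kv1 channels beside the node of Ranvier, lay lower. Cntnap2 was at 8.75, 8.25 and 8.48 FPKM in PND and 8.87, 13.7 and 9.19 FPKM in CON, so the groups came close apart from CON replicate 2 (log2 fold change -0.29, SE 0.18). These 4 genes were singled out after their values were seen.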

How the data were processed

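Levels of mRNA were analysed in 6 libraries, 3 PND and 3 CON, grouped by their treatment labels, with replicate numbers from the titles. The study took tissue from separate animals. The authors removed ribosomal RNA, sequenced on an Illumina instrument, filtered reads with Seqtk, aligned with HISAT2, counted fragments with StringTie, scaled by TMM and deposited the values as FPKM, 1 column per sample. Their own tests are not used here. Genome build, annotation and strand use for this step were not given in the sources used here. The submitters' processing notes name Bowtie 0.12.2, mm8 and mm9, with no role.

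Symbols were matched for 20866 of 21006 identifiers. GENCODE M21 on GRCm38 held 20877 of them and gave biotype, position, exon length and the GC content of the longest transcript. Effective depth was estimated from steps in FPKM times exon length, and 39.9% to 44.7% of values lay within 0.05 of a whole fragment, so fragments are estimates, used for precision and in 1 alternative. The floor was 3 fragments, for counting error alone.

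Groups were tested in limma 3.58.1 (R 4.3.3) on log2(FPKM + 0.1) for the 18185 genes averaging 0.1 FPKM or more, using lmFit, then eBayes (trend by intensity), without covariates. Fold changes are on this scale, which understates changes of low genes. The Benjamini-Hochberg adjustment covered all genes tested. A run of the fit on simulated data held large changes only, and no sample differences tied to GC content. It therefore does not show how well the fit works on these data. Alternatives were other pseudocounts, filters, quantile normalization, median centring, a GC correction, a replicate block, no intensity trend, voom and leaving out each sample. The members and lists were chosen with earlier results of these data known. Members named by rule were those with an unadjusted p below 0.05, the most abundant of each subfamily and the 15 most abundant, and of each other list the most abundant gene and any with an unadjusted p below 0.05. Others were named after their values were seen. Kcna7, Kcnj1, Kcnmb3 and Kcnv2 were not analysed here. The values of 4 tested members, and the Kcnb median, are not reported here.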

Additional observations from a re-analysis of the deposited data

How the results depend on the processing

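With 3 samples a group, single samples decided several counts. The number of members past the cut-off (1, Kcna6) was 0 with a pseudocount of 1, ranged from 0 to 2 when samples were left out in turn, and was 1 in each of the other alternatives. It was 0 without PND replicate 2. Without CON replicate 1 it was 2 (Kcna6 and Kcnh6, against 1.9% of all genes). Without CON replicate 2 it was also 2 (Kcnj11 among them, Kcna6 not, against 2.13% of all genes). The number of members with an unadjusted p below 0.05 (1) was 3 with the GC correction (Kcna6, Kcnn1 and Kcnj16, or 5.36% against 4.38% of all genes). It was 2 without the intensity trend (Kcna6 and Kcnmb1, or 3.57% against 3.62% of all genes), and 1 to 5 when samples were left out. The 5 came without CON replicate 2 (8.93% against 5.28% of all genes, among them Kcna6, Kcna4, Kcnj16 and Kcnj11). Without PND replicate 1 there were 2 (Kcna6 and Kcna5, or 3.57% against 2.24% of all genes). Without PND replicate 2 there were 2 (Kcna6 and Kcna5, against 3.27% of all genes). Without CON replicate 1 there were 2 (Kcna6 and Kcnh6, against 4.59% of all genes). The number with non-overlapping groups (5) was 8 with quantile normalization and 5 to 12 when samples were left out (8 without PND replicate 2, 10 without PND replicate 3, 12 without CON replicate 1, 11 without CON replicate 2 and 8 without CON replicate 3), where fewer samples make separation easier and 13.7% to 21.4% of all genes did not overlap. With quantile normalization that share was 7.76%.

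The Kcnq median (0.43) was 0.13 with a pseudocount of 1, 0.085 with no filter and 0.085 with a filter at 1 FPKM, and 0.10 to 0.55 when samples were left out. The Kcnn median (0.23) was 0.38 with a filter at 1 FPKM and -0.18 to 0.32 when samples were left out. The Kcnm median (-0.04) was -0.17 to 0.14 when samples were left out. The Kcnd median (-0.04) was -0.43 with a filter at 1 FPKM, where Kcnd1 is not tested. Besides those of Kcnn and Kcnm, medians that changed sign when samples were left out were those of all members (-0.10 to 0.12), Kcna (-0.18 to 0.05), Kcnc (-0.08 to 0.24), the silent subunits (-0.16 to 0.12), Kcnh (-0.03 to 0.24), Kcnt (-0.0037 to 0.29) and Kcnj (-0.10 to 0.19). Of the leave-one-out values, the lowest Kcnq and Kcnn medians and the highest Kcnm median came without CON replicate 2. The cause was not tested.

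Kcna6 had a log2 fold change of -1.24 to -0.91 when samples were left out, with limma p from 0.00123 to 0.0103, and its adjusted p was at least 0.113 in every alternative. With each group centred on its own mean, samples with the same replicate number had correlations of -0.049, -0.451 and 0.027 over 12387 genes. Pairs with different numbers ran from -0.418 to 0.427. The centring ties these correlations to each other, so they cannot decide whether the numbers mark pairs. The numbers were not taken as pairs in the main fit. With the replicate block, Kcna6 had a limma p of 0.0103 and the members past the cut-off remained 1, Kcna6, and with the GC correction and replicate block together its limma p was 0.000888. Without the GC correction the block changed no other call of a member. With it, the block ended the calls of Kcnn1 (limma p of 0.0818 against 0.0401) and Kcnj16 (0.0532 against 0.0485). The number of all genes past the cut-off (241) was 25 with a pseudocount of 1, 59 with a filter at 1 FPKM and 388 without CON replicate 2, and 361 genes had an unadjusted p below 0.05 with the replicate block against 569 without it. Members below 1 FPKM rest on few fragments, and for most of them the 95% interval reached a 2-fold difference.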
